A study of Mus musculus with 52 samples.

Results

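The 41 genes described here act around the start of S phase. They encode the proteins that license, fire and copy origins of DNA replication, supply nucleotides, or control the step from G1 into S. They were taken from a fixed list of gene symbols. Each of the 41 symbols occurred once in both deposited count tables, among 49466 genes in all. The study sequenced the daughters of burst-forming unit-erythroid cells (BFU-E), early progenitors of the red cell lineage, from the mouse. Both groups were C57/Bl6J cells from fetal liver at embryonic day 14.5, freed of cells with surface markers of other blood lineages and stem cells and sorted by their staining for Kit, CD24 and the transferrin receptor. Single founders were cultured for 16 hours, either without dexamethasone (13 untreated pairs) or with 100 nM dexamethasone, a synthetic glucocorticoid (13 dexamethasone pairs). Founders that had divided once gave 2 daughters each, which were sequenced as separate polyA RNA libraries, 52 in total. Every founder had therefore completed a division, and founders that had not divided were not analysed here.

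Before S phase, the origin recognition complex with Cdc6 and Cdt1 loads the MCM helicase ring (Mcm2 to Mcm7) onto DNA, which licenses the origin. Cyclin E and other kinase activity then recruit Cdc45 and the GINS complex, the helicase starts to unwind, and Pcna, its loader (Rfc2 to Rfc5) and the DNA polymerases copy both strands. Many of these genes are transcribed late in G1 under E2F factors, and BFU-E cells are known to keep dividing for longer when a glucocorticoid is present.

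The promoters of the genes were first set beside the E2F motif. Many genes of such a list are known to be under E2F factors, so a high share of matches is no independent finding. RefSeq promoters (GRCm38.p6, 250 bases before to 50 after each start) were matched for 34 of the 41 genes. The words TTTCCCGC, TTTCGCGC, TTTGCCGC and TTTGGCGC were searched on both strands, and a palindromic stretch can hold overlapping words. At least 1 word occurred in 14 of the 34 genes (41.2%), against 704 of 27025 symbols with a promoter (2.605%). The 7-letter words left when the first T is dropped occurred in 21 of the 34 (61.8%), against 10.9% of symbols. The words were found in Cdc6, Cdt1, Clspn, Lig1, Mcm3, Mcm5, Mcm6, Mcm7, Msh6, Orc1, Pola1, Pold1, Rfc3 and Uhrf1. A CCAAT box (CCAAT, both strands) was present in 20 of the 34 genes (58.8%), against 41.1% of all symbols. The 3 sequences shown are those of the genes whose matched windows lie wholly before the annotated gene. They are shown to let the words be read in place, 5′ to 3′ on the strand of the gene, with the matched words in capitals.
Mcm5 (chr8:75109336-75109387, plus strand): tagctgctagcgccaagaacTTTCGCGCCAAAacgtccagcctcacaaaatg
Mcm6 (chr1:128359725-128359835, minus strand): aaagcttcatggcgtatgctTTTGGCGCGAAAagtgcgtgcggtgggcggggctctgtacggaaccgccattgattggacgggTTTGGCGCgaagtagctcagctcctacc
Pola1 (chrX:93632266-93632313, minus strand): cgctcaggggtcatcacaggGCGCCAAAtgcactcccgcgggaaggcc
In Mcm5 and in the first match of Mcm6, 2 words on opposite strands overlap. The Mcm5 stretch in capitals is the reverse complement of that Mcm6 stretch. A match describes the letters only, and no binding was measured.

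Depth and cell identity bear on every value below. In 3 untreated pairs (4, 7 and 12) a cell held under 100000 counts, and 1 of those cells held no count. The other 23 pairs, 10 untreated and 13 with dexamethasone, gave 46 cells with 210383 to 5606500 counts (median 2773001), and they carry all main results. Levels are in CPM (the count divided by the library total and scaled to a fixed total), for a cell or for the summed counts of a pair. The founder is the replicate. The sources do not say how many embryos or litters the founders came from, so p-values measure the spread between these founders only. Lineage was read from marker genes, none of which is among the 41. A cell was called myeloid-like where its mean log2(CPM + 1) over 15 granulocyte and monocyte markers exceeded that over 15 erythroid markers, and erythroid-like otherwise. Both daughters were erythroid-like in 18 pairs and myeloid-like in 5 (untreated pairs 9 and 10, dexamethasone pairs 6, 7 and 10), and 3 cells lay within 2 log2 units of the limit. These classes come from the libraries themselves and are not groups of the study, and the depletion included surface markers of granulocytes. Dexamethasone pair 10 held 1 daughter with 8 erythroid and 9 granulocyte and monocyte markers at 10 CPM or more. The first daughter of dexamethasone pair 12, an erythroid-like cell, held 6 and 5. Summed granulocyte and monocyte markers reached 5718 CPM in an erythroid-like cell, and their lowest value in a myeloid-like cell was 7485 CPM. At least 3 of 8 megakaryocyte markers were at that level in 10 cells, with 5 in each daughter of untreated pair 5 and 5 and 4 in those of dexamethasone pair 8. Any count was found for 4 of 5 stem cell markers (Mecom at 0), 2 of 6 mast cell and basophil markers, 2 of 5 lymphoid markers (Cd3e, Il7r and Dntt at 0), 3 of 6 macrophage markers (C1qa, C1qb and Cd5l at 0), 3 of 4 hepatocyte markers (Alb at 0) and 1 of 3 endothelial markers (Cdh5 and Kdr at 0). The highest summed level in a cell was 7.48 CPM for the lymphoid, 27.9 CPM for the macrophage, 115 CPM for the hepatocyte and 176 CPM for the endothelial list. The stem cell and mast cell sums followed the lineage class and are given with that comparison. The library names in the count data carry a number from 1 to 7, called the column here. The labels do not say what it stands for. Only column 6 held both treatments (1 pair of each), so column and treatment can hardly be told apart.

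Rrm2 and the helicase genes Mcm6, Mcm5 and Mcm3 stood highest per length, and E2f1, Ccne2 and Clspn were detected in the fewest cells. Per length, as the median over pairs of the CPM per kilobase of exon, Rrm2, a subunit of ribonucleotide reductase, stood highest at 257.8. It was followed by the helicase subunits Mcm6 at 221.4, Mcm5 at 194.6 and Mcm3 at 186.0. Tipin, a fork protection factor, reached 182.4, and Pcna, the sliding clamp, 146.2. At the other end, the checkpoint mediator Clspn stood at 1.72, Wdr76, a WD-repeat protein, at 1.76 and the transcription factor E2f1 at 1.83. How evenly reads covered transcripts is not given in the sources, so small gaps in this order cannot be read as gaps in RNA.

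At 10 CPM or more, Mcm6, Rrm2 and Dut (dUTPase, which keeps uracil out of DNA) were detected in all 46 cells. In total 19 genes reached that level in at least 90% of the cells and 9 in under 60%. E2f1 was lowest with 14 cells, and the cyclin E gene Ccne2 and Clspn followed with 21 each. The low genes were often seen in only 1 of 2 daughters. E2f1 reached 10 CPM in both daughters of 3 pairs, in 1 daughter of 8 and in neither of 12. Orc1, the large subunit of the origin recognition complex, did so in 6, 13 and 4 pairs, and Ccne2 in 5, 11 and 7. Ccne1, the other cyclin E gene, split differently, with 13 pairs in which both daughters reached 10 CPM, 4 with 1 daughter and 6 with neither. Prim1, the catalytic subunit of primase, was above that level in both daughters of 19 pairs and in a single daughter of 1 pair. The plot of daughters at 10 CPM shows this order from Dut, Rrm2 and Mcm6 down to E2f1. How far the sampling of few RNA molecules makes this split was not tested.

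**Figure D1:**
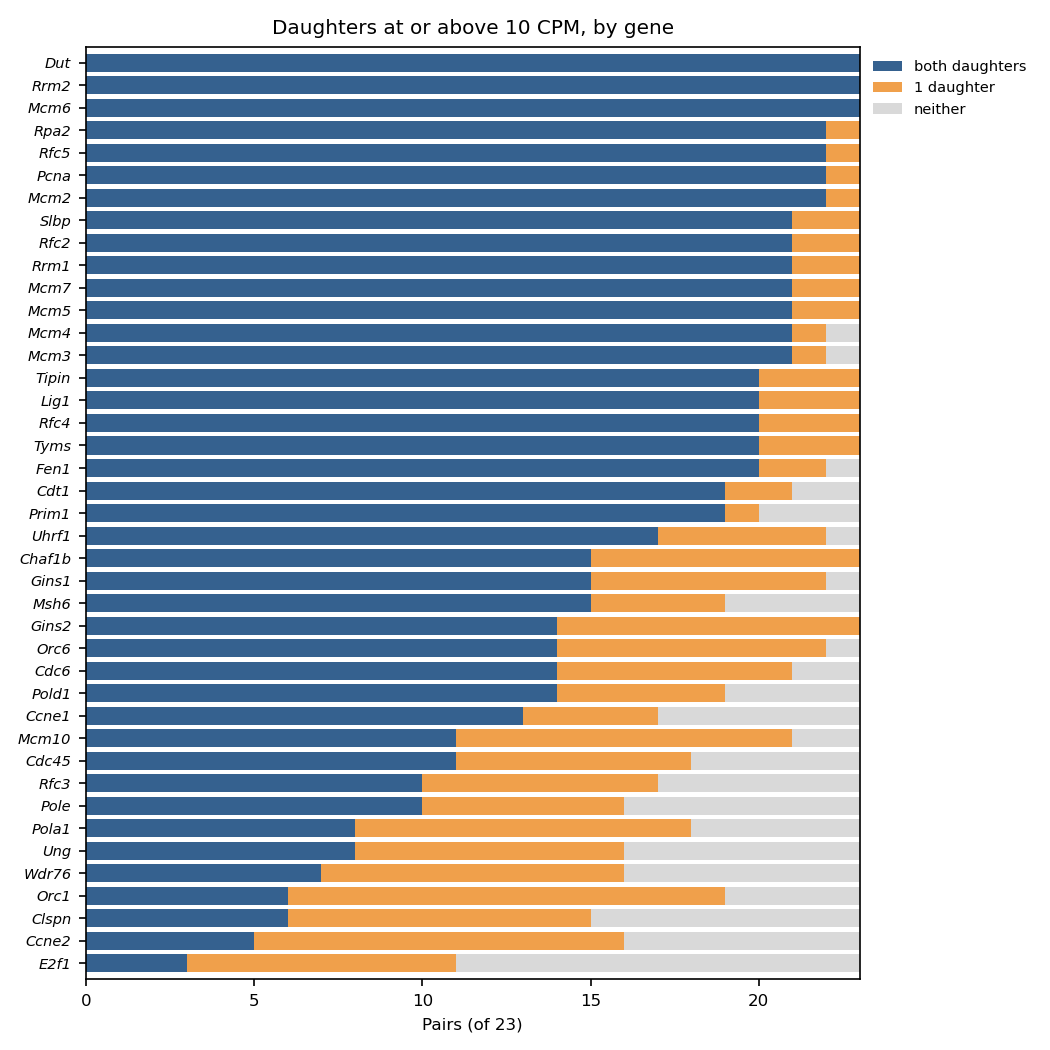
Number of pairs (x axis, of 23) in which both daughters, 1 daughter or neither daughter held at least 10 CPM of each of the 41 genes (y axis). Dut, Rrm2 and Mcm6 fill all 23 pairs, and E2f1 was above 10 CPM in both daughters of 3 pairs.

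The genes moved together to a moderate degree across cells. The mean log2(CPM + 1) over all 41 genes, called the G1/S score below, ran from 2.55 to 7.71 over the 46 cells with a median of 6.50. The correlation of a single gene with the mean of the other 40 ran from 0.005 for Rfc5, a clamp loader subunit, to 0.64 for Slbp, the histone stem-loop binding protein. Ccne1 reached 0.63, and 9 genes were at 0.5 or more. Cells of a pair share a founder, and all values of a cell share its depth and the number of genes detected, so these are descriptions with no p. The score correlated with the number of genes detected in a cell (Pearson r = 0.66, n = 46) and with 54 other replication genes (r = 0.78, n = 46). After each cell was thinned to 200000 counts the score kept nearly the same order of cells (Spearman rho = 0.991 and Pearson r = 0.997 with the unthinned score). The part of genes detected in the comparisons below was not tested.

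None of the 41 genes passed the test for dexamethasone. The comparison asked whether the glucocorticoid changed replication gene levels in daughters of the first division. In edgeR's quasi-likelihood test with Benjamini-Hochberg adjustment, 0 of 41 passed an adjusted p of 0.05, and 0.0% of the 7190 genes tested did. At an unadjusted p under 0.05 the counts were 0 of the 41 and 71 of all genes. DESeq2 and limma also called 0 genes, with 0 and 2 of the 41 and 173 and 304 of all genes at that unadjusted level. The estimates lay mostly below zero. By edgeR 29 of 41 were negative with a median of -0.17 (log2), against 48.6% of all genes and a median of 0.02. By limma on mean log2(CPM + 1) per pair, 34 of 41 were negative with a median of -0.50, against 60.1% of all genes and a median of -0.15. The range of pair values overlapped between treatments for all 41 genes, and 0.0% of all genes tested were without overlap. Of the other replication genes 39 of 52 tested were negative (median -0.29) and 0 passed, with the largest estimates for Rbl1, a pocket protein (-2.29 ± 1.13, SE), the firing factor Ticrr (-1.58 ± 1.52), Topbp1 (-1.55 ± 0.77) and Atad2 (-1.53 ± 1.01). Of 30 G2/M genes 21 were negative (median -0.22) and 0 passed.

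Among the licensing genes 8 of 10 estimates were negative, with a median of -0.12. Mcm6 ran from 590.4 CPM through a median of 982 to 2398 in the 10 untreated pairs and from 88.6 through 1059 to 2051 in the 13 dexamethasone pairs, a log2 difference of -0.09 ± 0.33 (SE). Mcm5 ran from 436 through 864 to 1762 and from 6.97 through 760.1 to 1673 (-0.15 ± 0.42). Both lowest values were those of dexamethasone pair 12, and the bulk of the 2 groups coincided. The first daughter of that pair was the shallowest cell kept (210383 counts), but most of the summed counts came from the second (1223692). Orc6, the small subunit of the origin recognition complex, had medians of 166 CPM untreated and 105 CPM with dexamethasone (-0.53 ± 0.57). The 4 firing genes were split, 2 below and 2 above zero. Cdc45, the helicase cofactor, was estimated at -0.60 ± 0.99, and the GINS subunits Gins1 and Gins2 at -0.15 ± 0.57 and 0.13 ± 0.47. Of the 12 fork genes 6 were negative. Pcna ran from 157 through 415 to 799.9 CPM in untreated pairs and from 175 through 331 to 591 with dexamethasone (-0.32 ± 0.28). Rpa2, a subunit of the single-strand binding protein, ran from 231 through 481 to 1414 and from 5.58 through 293 to 820.0 (-0.51 ± 0.46). Pold1, the catalytic subunit of DNA polymerase delta, was the largest positive estimate of the 41 (1.00 ± 0.87), with medians of 137 and 181 CPM.

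The nucleotide genes Rrm1, Rrm2 and Dut were estimated below zero and Tyms, thymidylate synthase, above it (0.23 ± 0.28). Rrm2 gave the smallest unadjusted p of the 41. Its pair values were 279, 992 and 2229 CPM (lowest, median and highest) in untreated pairs and 173, 457 and 1244 CPM with dexamethasone. The dexamethasone median was lower, yet the ranges overlapped, and the difference of -0.68 ± 0.35 (SE) did not pass (edgeR, unadjusted p = 0.062, adjusted p = 1.00). Rrm1, the other subunit of the same enzyme, was at -0.45 ± 0.36. Dut ran from 108 through 334 to 620.1 CPM and from 74.2 through 284 to 472 CPM (-0.32 ± 0.28). With all 26 pairs in the fit the Dut estimate became -4.16 (edgeR, adjusted p = 0.71). That fit adds untreated pair 4 at 64309 CPM of Dut, from 1 cell of 13575 counts, beside untreated pairs 7 and 12 at 449.7 and 824 CPM.

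All 3 regulators were estimated below zero. Ccne1 was at 0.70, 249.7 and 1039.6 CPM (lowest, median and highest) in untreated pairs and at 0.43, 93.5 and 384 CPM with dexamethasone. Values near zero occurred in both groups, and the difference was -1.17 ± 0.93 (SE). E2f1 (-0.54 ± 1.40) and Ccne2 (-0.06 ± 1.15) had errors wider than their estimates. Of the 8 chromatin, checkpoint and repair genes 7 were negative with a median of -0.33. Tipin ran from 111 through 403 to 739 CPM and from 125 through 312 to 529 CPM (-0.48 ± 0.28), Slbp was at -0.17 ± 0.28 and Clspn at -0.68 ± 1.15. Wdr76 was low throughout, with medians of 14.5 and 7.50 CPM (-1.05 ± 0.75). Over the genes not named so far in this comparison, the estimates ran from -0.76 for Uhrf1, which keeps DNA methylation in place after replication, to 0.47 for the flap nuclease Fen1. The adjusted p of every gene was 1.00 after rounding (edgeR).

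**Figure D2:**
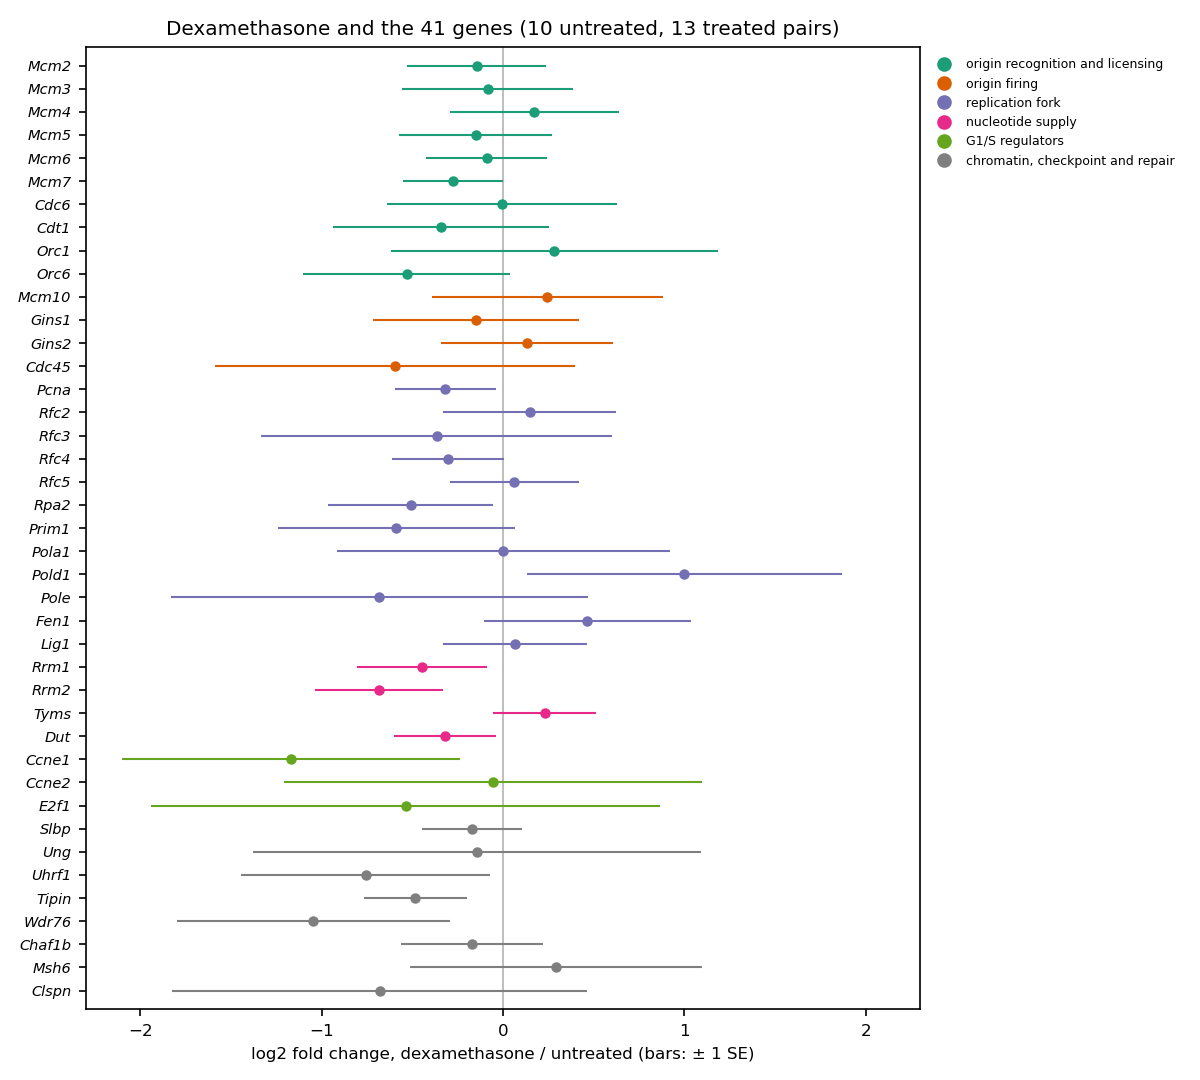
Log2 fold change of dexamethasone against untreated pairs (x axis) for the 41 genes (y axis, coloured by role), with bars of 1 standard error from edgeR. Of the 41 points 29 lie below zero, Rrm2 at -0.68 and Pold1 at 1.00 among them, and no gene passed the test.

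The G1/S score per pair, the mean of the 2 daughters, was 6.65 ± 0.87 (SD, n = 10) without and 6.15 ± 0.83 (SD, n = 13) with dexamethasone, a difference of -0.50. Untreated pairs ran from 4.75 through a median of 6.73 to 7.66 and dexamethasone pairs from 3.85 through 6.36 to 7.12. Over these pairs the difference was smaller than the SD of either group, which did not hold in every subset below. No p is given for a mean over chosen genes. Over all pairs with counts the difference was -0.35, after thinning -0.51 and with TMM-scaled library sizes -0.42. Among erythroid-like pairs it was -0.87 (6.99 ± 0.49, n = 8, against 6.12 ± 0.93, n = 10). Within columns 1 to 4 it was -0.57 (7.11 ± 0.50, n = 6, against 6.53 ± 0.44, n = 8) and within columns 5 to 7 it was -0.42 (5.97 ± 0.90, n = 4, against 5.55 ± 0.98, n = 5). The columns themselves spread as widely. Column means ran from 7.30 in column 1 and 6.92 in column 2 (untreated) through 6.64 and 6.43 in columns 3 and 4 (dexamethasone) to 5.82 in column 5 (untreated) and 5.35 in column 7 (dexamethasone). The mean number of genes detected was 8269 in column 1 and 6614 in column 7. In column 6 the single untreated pair scored 6.42 and the single dexamethasone pair 6.35. For single genes, 29 of 41 edgeR estimates were negative within columns 1 to 4 and 20 of 40 within columns 5 to 7 (median 0.005). In the test of that difference itself 0 of the 41 genes and 0 of 7190 passed (edgeR, with 0 and 451 at an unadjusted p under 0.05). The part of the column in the score was not tested beyond these values.

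**Figure D3:**
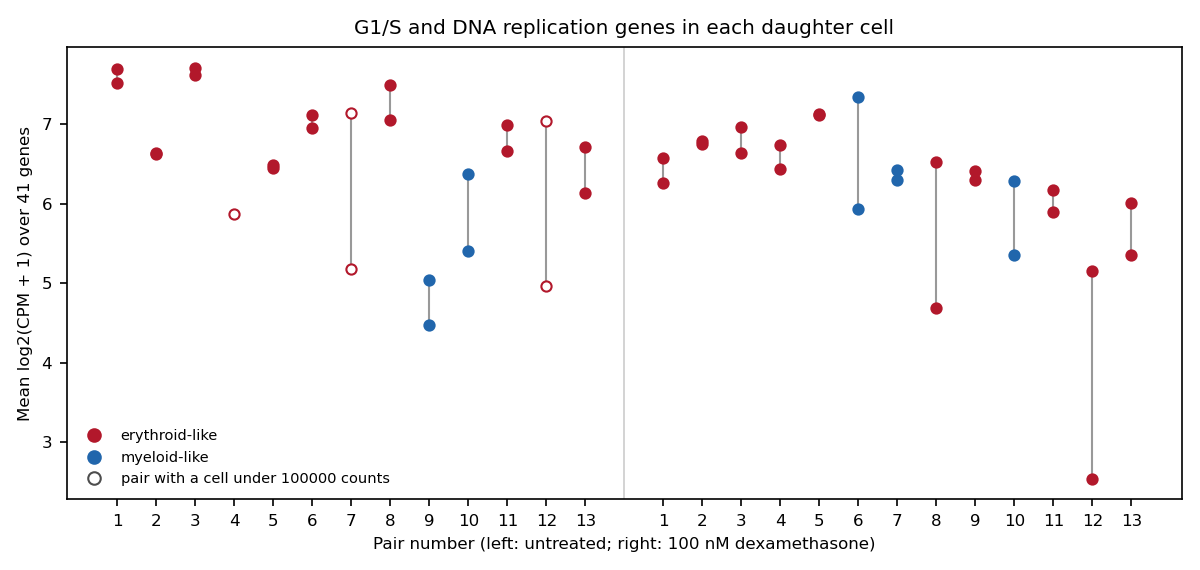
G1/S score (y axis, mean log2(CPM + 1) over 41 genes) of each daughter, by pair number (x axis, untreated on the left, 100 nM dexamethasone on the right), with a line joining sisters. Sisters lie close in most pairs, dexamethasone pair 12 differs most (2.60), and open circles mark pairs with a cell under 100000 counts.

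None of the 41 genes passed the main test between myeloid-like and erythroid-like pairs. In edgeR's quasi-likelihood test with treatment as covariate, 0 of 41 genes passed, against 2.71% of the 9112 genes tested. The estimates were balanced, with 19 of 41 negative (median 0.10), against 50.3% of all genes. Only Rpa2 and Rfc2 were under an unadjusted p of 0.05, and they are named for that, after their values were seen. Rpa2 was at 264, 1414, 795, 820.0 and 415 CPM in untreated pairs 9 and 10 and dexamethasone pairs 6, 7 and 10, and ran from 5.58 through 338 to 668 CPM over the 18 erythroid-like pairs. In 3 of the 5 myeloid-like pairs Rpa2 was above every erythroid-like pair, and the other 2 lay within their range. The log2 difference was 1.35 ± 0.46 (SE, edgeR adjusted p = 0.118). Rfc2, a clamp loader subunit, was at 1021, 596, 590.0, 329 and 1017 CPM in the same order and ran from 4.18 through 330.1 to 904 CPM in erythroid-like pairs (1.19 ± 0.50, adjusted p = 0.192).

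Other tools called 1 gene each. DESeq2 called Rpa2 (adjusted p = 0.026), where 14.1% of the genes with an adjusted p were called. On limma's scale of mean log2(CPM + 1) per pair, 29 of 41 were negative with a median of -0.44, against 70.4% of all genes and a median of -0.64, and 6.33% of all genes were called. Its call was Msh6, a mismatch recognition protein (adjusted p = 0.012). Msh6 was at 1.04, 0.39, 0.28, 197 and 37.9 CPM in the 5 myeloid-like pairs in the order above, and ran from 3.13 through 171 to 379 CPM in erythroid-like pairs. Its 3 lowest pairs were myeloid-like, and edgeR gave -2.07 ± 1.12 (adjusted p = 0.367). E2f1 was at 127, 0, 11.4, 150.1 and 0 CPM in the myeloid-like pairs and at most 62.4 CPM in erythroid-like pairs (2.78 ± 1.47, edgeR adjusted p = 0.347). None of the 41 genes separated the classes without overlap, and 0.867% of all genes tested did.

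Markers of other cells also differed between the classes. The summed level of the stem cell markers ran from 225 to 1732 CPM (mean 1101) in the 10 myeloid-like cells and from 0 to 432 CPM (mean 14.2) in the 36 erythroid-like cells. That of the mast cell and basophil markers ran from 0 to 1154 CPM (mean 251) and from 0 to 54.6 CPM (mean 1.89), with Ms4a2, Fcer1a, Gzmb and Prss34 at 0 in all 46 cells. The part of these markers in the comparison was not tested.

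The G2/M genes gave other values in the same pairs. In myeloid-like pairs the mean log2(CPM + 1) over 30 G2/M genes was 3.78 ± 1.60 (SD, n = 5), against 6.23 ± 1.16 (n = 18) in erythroid-like pairs. The G1/S score was 5.89 ± 0.72 and 6.51 ± 0.87 in the same pairs. Of the 30 G2/M genes 25 had negative edgeR estimates (median -0.65), and Plk1, a mitotic kinase, passed (-4.14 ± 1.12, adjusted p = 0.044). Plk1 lost the call without dexamethasone pair 6 (edgeR adjusted p = 0.074) or 7 (0.059) and without untreated pair 9 (0.108) or 10 (0.104), and no G2/M gene was called in those fits. Without dexamethasone pair 10 Plk1 kept it (-8.85, edgeR adjusted p = 5.0e-07). That fit called 3 of the 30 G2/M genes and 299 of 9492 genes. DESeq2 called 5 and limma 8 of the 30, and DESeq2 gave no p for Plk1. Of the 54 other replication genes 33 were negative and 1 passed, Dctpp1, which clears unusual nucleotides (1.09 ± 0.29, adjusted p = 0.041). Dctpp1 lost the call with columns 1 to 4 against columns 5 to 7 as covariate (edgeR adjusted p = 0.070) and in limma (0.272). It also lost the call without dexamethasone pair 10 (edgeR adjusted p = 0.146) or untreated pair 9 (0.072) or 10 (0.155). DESeq2 called 8 and limma 6 of the 54. Dexamethasone pairs 6 and 7 scored 6.63 and 6.36 for G1/S and 2.45 and 2.09 for G2/M, the 2 lowest G2/M means of the 23 pairs. Over cells, G1/S and G2/M means correlated at r = 0.53 among 36 erythroid-like cells and at -0.54 among 10 myeloid-like cells, with no p, since sisters share a founder and 10 cells come from 5 founders.

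**Figure D4:**
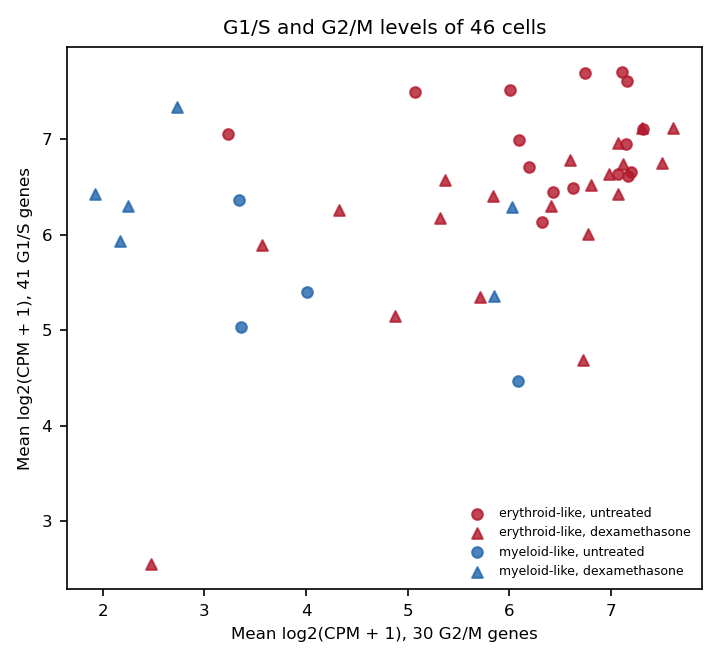
Mean log2(CPM + 1) of 41 G1/S genes (y axis) against that of 30 G2/M genes (x axis) in 46 cells, by lineage class (colour) and treatment (shape). Most erythroid-like cells lie at the upper right, and 4 dexamethasone-treated myeloid-like cells lie at a G2/M mean under 3 with G1/S scores between 5.93 and 7.33.

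In edgeR's main test Ccne1 was the 1 gene of the 41 called as differing between founders by more than between sisters. The comparison asked whether founders of 1 treatment differed by more than their 2 daughters did. In edgeR's quasi-likelihood F test over the pairs, 1 of 41 genes passed, against 3.38% of the 8015 genes tested, a share of the 41 no higher than that of all genes. Limma called 9 of the 41 and edgeR with no filter 6 (where 17.8% of all genes were called), each with Ccne1 among them. Ccne1 sisters differed by 1.85 log2 units on average and cells of different founders by 3.92 (unadjusted p = 0.0016, adjusted p = 0.047). In untreated pair 1 the daughters held 1078 and 973 CPM of Ccne1, in untreated pair 3 they held 488 and 272 CPM, and in dexamethasone pair 3 they held 340.3 and 433 CPM. In the 6 pairs where neither reached 10 CPM (untreated 2 and 9, dexamethasone 7, 8, 12 and 13) no daughter exceeded 2.82 CPM. Daughters were thus mostly both high or both near zero. The 4 unlike pairs were dexamethasone pair 1 (106 and 2.72 CPM), dexamethasone pair 6 (263 and 0.43), dexamethasone pair 10 (1.22 and 122) and untreated pair 10 (334 and 0.95). Both daughters reached 10 CPM in 13 of 18 erythroid-like and 0 of 5 myeloid-like pairs, and the edgeR estimate between the classes was -1.69 ± 1.27 (SE, adjusted p = 0.583).

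Ccne1 also passed within columns (edgeR, adjusted p = 0.037), where 1.16% of all genes were called, and among erythroid-like pairs (0.0035). In limma, where each of the 23 pairs was left out in turn, its adjusted p ran from 0.00082 to 0.012. The edgeR fit was not repeated with pairs left out. The other genes depended on the tool. The 9 genes in limma, where 8.12% of all genes were called, were the helicase subunits Mcm2, Mcm3, Mcm4 and Mcm5, Rpa2, Prim1, the polymerase epsilon subunit Pole, the chromatin factor Uhrf1 and Ccne1, named after their values were seen. Prim1 sisters differed by 1.21 and founders by 2.33 (limma adjusted p = 0.00069), and Mcm2 sisters by 0.81 and founders by 1.31 (0.0020). In edgeR neither passed (adjusted p = 0.205 and 0.460). Without dexamethasone pair 12 limma no longer called Mcm2, Mcm5 and Rpa2. It then called 6 of the 41 genes, Ccne1 and Prim1 among them, and 605 of all genes. Over the 41 genes the sister difference was below the founder difference for 32, against 79.0% of all genes, and the median ratio was 0.83, against 0.87. Of the other replication genes 1 of 53 passed in edgeR (Dbf4, which activates the Cdc7 kinase, adjusted p = 0.012), and of the G2/M genes 1 of 30 (Plk1, 0.0080).

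**Figure D5:**
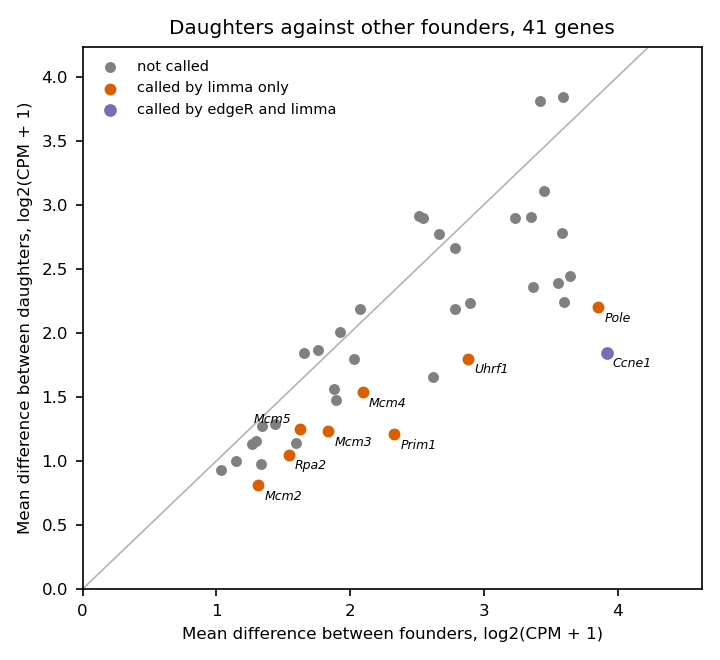
Mean absolute difference in log2(CPM + 1) between sisters (y axis) and between cells of different founders of the same treatment (x axis) for the 41 genes, with equality as a line. Ccne1 lies farthest below the line at 1.85 against 3.92, and 32 genes lie below it.

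For the G1/S score, sisters differed by 0.535 on average and cells of different founders in the same treatment by 0.973 (492 pairs of cells). In 20 of 23 pairs the sisters were closer than that founder mean. The scores of the 2 daughters correlated at r = 0.66 over 23 pairs and at 0.63 without dexamethasone pair 12. Among the 23 pairs the widest gaps were in dexamethasone pairs, 2.60 in pair 12, 1.83 in pair 8 and 1.40 in pair 6. Untreated pairs 12 and 7, each with a shallow cell, had gaps of 2.07 and 1.96. In pair 12 the daughters held 210383 and 1223692 counts, 3886 and 5327 genes and scores of 2.55 and 5.15. In pair 8 depth was alike (2304233 and 2314619 counts), the scores were 4.69 and 6.52, and the G2/M means were 6.72 and 6.81. The mean gap was 0.336 ± 0.301 (SD, n = 10) in untreated and 0.687 ± 0.799 (SD, n = 13) in dexamethasone pairs. That difference was smaller than the SD of the treated group and larger than that of the untreated group. Without dexamethasone pair 12 the treated mean was 0.527 ± 0.579 (n = 12), and with the shallow pairs the untreated mean was 0.616 ± 0.707 (n = 12). The difference between treatments was 0.351 over the 23 pairs, 0.148 with TMM-scaled library sizes and 0.071 with the shallow pairs.

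A change with dexamethasone in how far sisters diverged was not detectable for any of the 41 genes. In limma on the absolute difference in log2(CPM + 1) between sisters, 0 of the 41 genes and 0.0% of 8015 genes passed, with 1 and 325 at an unadjusted p under 0.05. The gap was wider with dexamethasone for 25 of 41 genes (median 0.27, against 0.09 over all genes). Over all pairs with counts in both cells it was wider for 19 of 41 and narrower for 22 (median -0.13, against -0.07 over all genes). Orc1 had the smallest p of the 41 (unadjusted p = 0.018, adjusted p = 0.992), with a gap 2.94 log2 units wider in dexamethasone pairs, and is named after its value was seen.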

How the data were processed

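The 2 tables deposited by the authors, split by treatment, hold unscaled whole-number counts for each gene. STAR 2.4, featureCounts and GRCm38 are named in the submitters' processing notes. No source used here says whether counting used strand or how reads with several matches were handled. Genes with near-identical pseudogenes, such as Pcna, are therefore uncertain. All 52 columns were matched to samples by name.

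Cells with at least 100000 counts in both daughters of a pair (23 pairs) entered the main fits. Depth was 210383 to 5606500 counts per cell, and precision is limited by the number of founders. Counts of the 2 daughters were summed and tested in edgeR 4.0.16 (R 4.3.3) with TMM scaling, filterByExpr, quasi-likelihood tests and Benjamini-Hochberg adjustment over all genes. The test of sharing used single cells and genes that reached 5 counts in 10 or more cells. The distance between sisters was tested in limma 3.58.1. DESeq2 1.42.0, limma on log2(CPM + 1), RLE scaling, no filter, all pairs, erythroid-like pairs, column covariates and left-out pairs were alternatives. The scripts were tested on simulated data. All 41 genes passed the filters of the main fits, and 40 were tested within columns 5 to 7. Exon lengths are unions from GENCODE M21.

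The genes, lists and tests were chosen with earlier results of these data known. Genes given in full were the 2 most abundant and the most changed of each role, any gene called, the 3 most and 3 least often detected, and Dut, Rrm2, Ccne1, Wdr76 and Tipin, which earlier results had named.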

Additional observations from a re-analysis of the deposited data

Results flagged for a closer look

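In all, 42 sets of values were searched for a pair that lay far from the others by Dixon's limit. The search flagged 4, each over the 10 untreated pairs. Chance alone flags about 1 in 20 such sets. The sets did not cover every gene in the untreated pairs. Mcm3, for example, was at 6.05 CPM in untreated pair 9 (untreated median 849 CPM) and has no flag. A missing flag therefore does not show that a gene had no such pair. On the log2(pair CPM + 1) scale Pcna was at 7.31 in untreated pair 13 (group median 8.70), Gins1 at 0.43 in untreated pair 9 (median 6.47), Slbp at 6.62 in untreated pair 9 (median 8.69) and Tipin at 6.80 in untreated pair 6 (median 8.65). All 4 lay below their group. Untreated pair 9 is myeloid-like.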

How the results depend on the processing

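For dexamethasone 0 of 41 genes passed in all 12 alternatives, and the score difference stayed negative in each of its alternatives, between -0.71 and -0.31 with a pair left out. With the pair number as replicate block 0 genes passed as well (142 of all genes at an unadjusted p under 0.05), and Mcm5 turned to 0.060 and Gins2 to -0.30. That number is only a name. Over 10 shared numbers, deviations of same-numbered pairs correlated between -0.113 and 0.128, and 1 untreated pair correlated best with its own number. Other dexamethasone estimates that changed sign, none of them called, are as follows. Ccne2 was at 0.018 in DESeq2, 0.018 with RLE scaling, 0.0024 over all pairs and 0.29 within columns 1 to 4. Gins2 was at -0.079 over all pairs, -0.48 in limma and -0.018 with columns 1 to 4 against columns 5 to 7 as covariate. It was at -0.40 within columns 1 to 4 and -0.13 without dexamethasone pair 12, where Mcm6 was at 0.027. Gins1 was at 0.18 over all pairs. Among erythroid-like pairs Mcm5 was at 0.14 and Wdr76 at 0.23. Within columns 1 to 4 Rpa2 was at 4.0e-05 and E2f1 at 0.70. Within columns 5 to 7 Mcm6 was at 0.0098, Pcna at 0.22, Gins1 at 0.50, Cdc45 at 0.47, Slbp at 0.59 and Clspn at 1.80. The cause of these changes was not tested.

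Between lineage classes DESeq2 and limma called 1 gene each in place of 0. Over all genes edgeR called 247 (147 higher, 100 lower), DESeq2 1252 (325 and 927), limma 577 (181 and 396) and edgeR with no filter 739 (604 and 135). In limma Mcm6 turned to -0.22, Pcna to -0.10, Ccne2 to -0.19, Cdc45 to -0.26 and Tipin to -0.27. Pcna was at -0.0089 with no filter, and Cdc45 at -0.029 with the columns as covariate. With a myeloid-like pair left out, 180 to 299 genes were called, and estimates ran from -1.91 to 0.76 for Ccne2, -0.56 to 0.54 for Cdc45, -0.70 to 0.10 for Gins1, -0.43 to 0.23 for Gins2, -0.23 to 0.22 for Pcna, -2.09 to 0.24 for Pold1, -0.037 to 0.33 for Tipin and -0.33 to 1.69 for Wdr76. For sharing between sisters limma called 9 of 41 genes and edgeR with no filter 6 (Msh6, Uhrf1, Pold1, Pole, Ccne1 and Ung). Over all genes edgeR called 271, limma 651, edgeR with no filter 3313, edgeR among erythroid-like pairs 158 and edgeR within columns 93. In limma 6 to 11 of the 41 genes and 515 to 700 of all genes were called with a pair left out. Mcm2, Mcm3, Mcm4 and Rpa2 each lost the call without 1 pair, Pole without 3, and Mcm5 and Uhrf1 without 4 each. No alternative changed the 0 calls for the distance between sisters. Depth limits the genes under 10 CPM most, since a zero there cannot be told from missed molecules.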
